A study of Mus musculus with 8 samples.

Results

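The mitochondrial ribosomal protein genes are the nuclear genes of the large (Mrpl) and small (Mrps) subunit of the mitochondrial ribosome. They were taken as the rows whose symbol begins with Mrpl or Mrps followed by a digit and whose counts summed to 80 or more over the 8 libraries, which gave 73 of 21165 rows, 45 Mrpl and 28 Mrps genes. The threshold excluded none of them, since the lowest sum was 1230 counts (Mrps28) and the highest 12368 (Mrpl30), and no row with such a symbol lay near 80. All 73 also passed the filter on low counts, with 12699 genes tested in all. RNA was sequenced from microdissected cortices of mouse embryos at E18.5, 4 with a constitutive deletion of Nuak1, a kinase of the AMPK-related family, and 4 wild-type (WT) controls, to ask which transcripts change when the kinase is lost. The knockout (KO) is carried by every cell of the embryo and comes from a single line on a C57Bl/6JRj background, so neurons, glia and vessels lacked the gene alike. The labels give 2 males and 2 females among KO embryos, 1 male and 3 females among WT embryos. They name 3 litters, whereas the text on the design speaks of 4, and no column of the count table is tied to an embryo, so litter and sex cannot be placed on a library. Libraries are called here by genotype and running number (KO R1 to R4, WT R1 to R4), and nothing ties equal numbers together. The cortex was bulk tissue, and fewer cells of a type and less RNA per cell cannot be told apart in it.

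Libraries held between 9643711 and 27014858 counts, and libraries of one genotype differed by more than sampling noise in every pair (chi-square of at least 5.92 per degree of freedom). Nuak1 had 11.1 to 20.5 normalized counts (counts scaled to a common library size) in the 4 KO libraries and 877 to 1445 in the 4 WT libraries, so each column followed its label. All 8 markers of cortical projection neurons were expressed above the filter on low counts, whereas none of 5 choroid plexus markers passed the filter. Library KO R1 stood apart in markers of meningeal fibroblasts. Of 10 such markers 6 passed the filter, and their median deviation from the mean of the 8 libraries was 4.09 on the log2 scale in KO R1 against -0.53 to -0.07 in the other 3 KO libraries and -1.08 to -0.27 in WT. Endothelial markers were also highest in KO R1, at 0.48 against -0.14 to 0.07 in the other KO libraries. So were microglia markers, at 0.62 against -0.21 to 0.33 in the other KO libraries and -0.30 to 0.22 in WT. The part of these cells in the values below was not tested. Results for the genes of mitochondrial translation are given without KO R1 where they rest on it.

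The mitochondrial ribosome translates the few messages that mitochondrial DNA still encodes, all of them core subunits of the respiratory chain and of ATP synthase, so every cell that respires depends on it. Its RNA comes from mitochondrial DNA, whereas its proteins are made in the cytosol from nuclear genes and imported. Part of these proteins descend from bacterial ribosomal proteins, and others were added in the course of mitochondrial evolution. Neurons, with their high demand for ATP along axons and at synapses, are among the cells hit when this machinery fails, and mutations in several of these genes cause inherited mitochondrial disease.

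The promoters of these genes are shown first, because the genes are scattered over 17 chromosomes and share no locus. RefSeq (GRCm38.p6) gave a window from 250 bases before to 50 after the start for 64 of the 73 genes. None was given for Mrps28, Mrpl19, Mrps35, Mrpl38, Mrps34, Mrpl4, Mrpl15, Mrpl54 and Mrpl13. Of the 64, 3 genes had several windows, among them Mrpl48 with 4, and only the first listed was searched. The following stretches run from 100 bases before to 30 after the start, on the strand of the gene. They show 5 genes with matches to the sites of NRF1 (GCGCATGCG), of ETS factors such as GABP (CCGGAAG) or of YY1 (AAGATGGCG), followed by 3 genes without such a match, and capitals mark the matches on either strand. Mrpl32 lay at chr13:14613008-14613137 (minus strand), Mrpl22 at chr11:58171564-58171693 (plus strand), Mrpl52 at chr14:54426809-54426938 (plus strand) and Mrps22 at chr9:98601650-98601779 (minus strand). Mrps18a lay at chr17:46110904-46111033 (plus strand), Mrpl48 at chr7:100608272-100608401 (minus strand), Mrpl20 at chr4:155802778-155802907 (plus strand) and Mrps14 at chr1:160195115-160195244 (plus strand).
Mrpl32: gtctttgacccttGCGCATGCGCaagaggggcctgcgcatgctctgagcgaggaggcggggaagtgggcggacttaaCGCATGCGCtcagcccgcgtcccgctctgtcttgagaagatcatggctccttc
Mrpl22: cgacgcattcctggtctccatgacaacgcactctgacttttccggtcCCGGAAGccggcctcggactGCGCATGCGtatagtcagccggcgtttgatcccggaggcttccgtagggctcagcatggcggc
Mrpl52: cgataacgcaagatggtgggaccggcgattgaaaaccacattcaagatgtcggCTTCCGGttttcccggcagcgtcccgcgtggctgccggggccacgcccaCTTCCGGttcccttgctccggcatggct
Mrps22: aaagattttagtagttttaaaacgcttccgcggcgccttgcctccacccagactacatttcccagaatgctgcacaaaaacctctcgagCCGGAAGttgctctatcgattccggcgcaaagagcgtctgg
Mrps18a: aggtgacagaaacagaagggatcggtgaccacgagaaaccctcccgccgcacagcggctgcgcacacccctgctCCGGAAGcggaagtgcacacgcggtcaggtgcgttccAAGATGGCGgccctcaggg
Mrpl48: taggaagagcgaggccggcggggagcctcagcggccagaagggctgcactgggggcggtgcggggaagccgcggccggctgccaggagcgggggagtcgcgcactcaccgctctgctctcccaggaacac
Mrpl20: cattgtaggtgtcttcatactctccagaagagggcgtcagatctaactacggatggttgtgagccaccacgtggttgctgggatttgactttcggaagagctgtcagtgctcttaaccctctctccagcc
Mrps14: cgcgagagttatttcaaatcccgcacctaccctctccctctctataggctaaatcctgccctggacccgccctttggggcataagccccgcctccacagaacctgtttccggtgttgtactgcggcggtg

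NRF1 and GABP are textbook regulators of nuclear genes for respiration, and YY1 is a zinc finger factor that often binds at the start of genes for ribosomes and mitochondria. Mrpl32 held the palindromic form of the NRF1 site, which matches on both strands with an overlap, and a further match 23 bases before the start. Mrpl22 held an NRF1 and an ETS match, and Mrpl52 held 2 ETS matches, 1 on each side of its start. Mrps18a held an ETS match before and a YY1 match after its start. Over the 64 windows, an ETS match was found in 21 (32.8%), an NRF1 match in 7 (10.9%) and a YY1 match in 7 (10.9%). Among all 27025 genes with a window the shares were 9.12%, 1.81% and 1.49%. Among the 8809 tested genes with a window, which are fewer than 80% of those tested, they were 17.2%, 3.79% and 3.16%. At least 1 of the 3 motifs was present in 30 of the 64 windows (46.9%), against 11.8% of all genes and 22.6% of tested genes. NRF1 matches lay in 6 of 39 Mrpl windows and 1 of 25 Mrps windows, and ETS matches in 10 and 11. SP1 (GGGCGG) was found in 32 of the 64 windows, between the share of all genes (35.9%) and that of tested genes (66.3%), and NF-Y (CCAAT) in 39.1% against 37.9% and 38.8%. The cAMP response element (TGACGTCA), the E-box (CACGTG) and the TBP motif (TATAAA) were found in 3.12%, 7.81% and 4.69% of the windows. Among all genes these shares were 1.88%, 7.24% and 14.2%, and among tested genes 3.44%, 10.3% and 6.53%. These are matches of letters, and no binding was measured in these embryos. Fold changes in the KO were set beside the matches. The median log2 fold change was 0.05 for the 21 genes with an ETS match and 0.05 for those without, and it was -0.02 with and 0.05 without an NRF1 match. Of the genes with unadjusted p under 0.05 described below and a window, Mrpl32 alone held an NRF1 match and Mrps22 alone an ETS match.

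**Figure D1:**
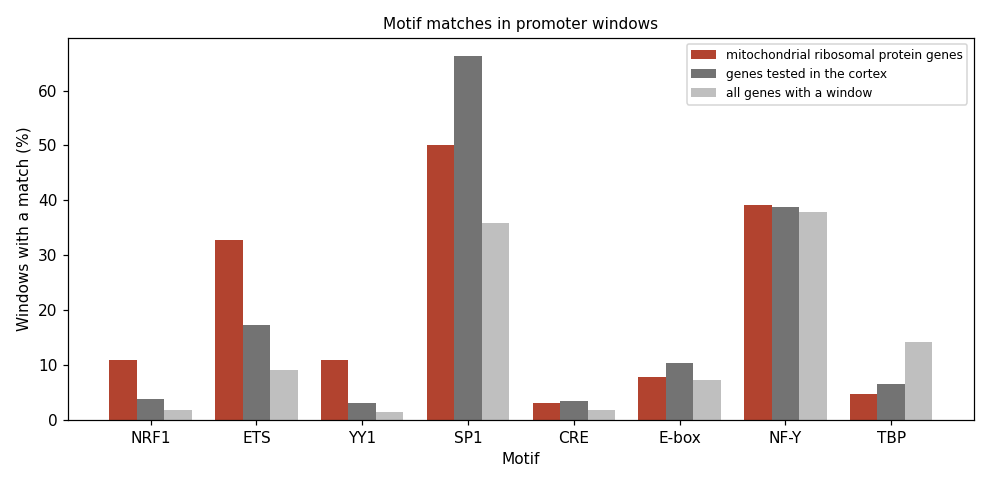
Share of promoter windows with a match (%, vertical axis) for 8 motifs (horizontal axis) in the 64 windows of mitochondrial ribosomal protein genes, in 8809 tested genes and in all 27025 genes with a window. The bars of the 64 windows exceed both others for NRF1 (10.9%), ETS (32.8%) and YY1 (10.9%), and lie below tested genes for SP1 (32 of 64 windows against 66.3%).

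The genes also often sat head to head with another gene. In the annotation of NCBIM37, the assembly behind mm9, 28 of the 73 (38.4%) had the start of a protein-coding gene on the opposite strand within 1000 bp, against 15.3% of 12176 tested genes with a position. Some pairs joined genes of the same machinery. Mrpl46 and Mrps11, from different subunits, share such a start region on chromosome 7, and Mrps12 faces Sars2, the mitochondrial seryl-tRNA synthetase, at 171 bp. Mrpl32 faces the proteasome gene Psma2 at 217 bp, and Mrps27 faces Ptcd2, a mitochondrial RNA-binding protein, at 108 bp. Exon bases were shared with another gene by 23 of the 73, mostly on the other strand, and by 3 (Mrpl48, Mrps6 and Mrps34) on the same strand. Their counts are less certain, since reads on shared bases can be dropped or split, and the strand setting of the counting is not given in the sources used here. On chromosome 10, which carries Nuak1, lie Mrpl54 (3.11 Mb from it) and Mrpl42 (11.1 Mb).

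Levels were compared between genes as mean normalized counts per kilobase of the median annotated coding transcript. The genes were expressed at similar, middling levels, with a median of 504 per kb for Mrpl and 464 for Mrps genes, and the median over the 73 lay at percentile 71.2 of the tested genes. The ratio of the 90th to the 10th percentile was 7.34 among the 73 genes against 92.5 among all tested genes. Cytosolic ribosomal protein genes, of which 73 were tested, reached a median of 12800 per kb, 26.3 times that of the mitochondrial ones. In the large subunit Mrpl52, a mitochondria-specific protein, was highest at 2372 per kb, followed by Mrpl20 at 1712 and Mrpl11, a protein at the base of the factor-binding stalk, at 1624. The lowest were Mrpl1, of the stalk on the other side of the subunit, at 108, Mrpl35 at 84.9 and Mrpl17 at 62.9. In the small subunit Mrps21 led at 1462 per kb, followed by Mrps18c at 1066 and Mrps17 at 1019. Mrps2, Mrps26 and Mrps25 were lowest, at 96.9, 91.6 and 75.8. The 6 lowest genes all had long annotated transcripts (2080 to 6073 bp), so their place depends on the transcript length used. Within a genotype the levels were steady. The median coefficient of variation was 7.26% in WT and 5.73% in KO, against 10.2% and 8.18% over all tested genes.

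**Figure D2:**
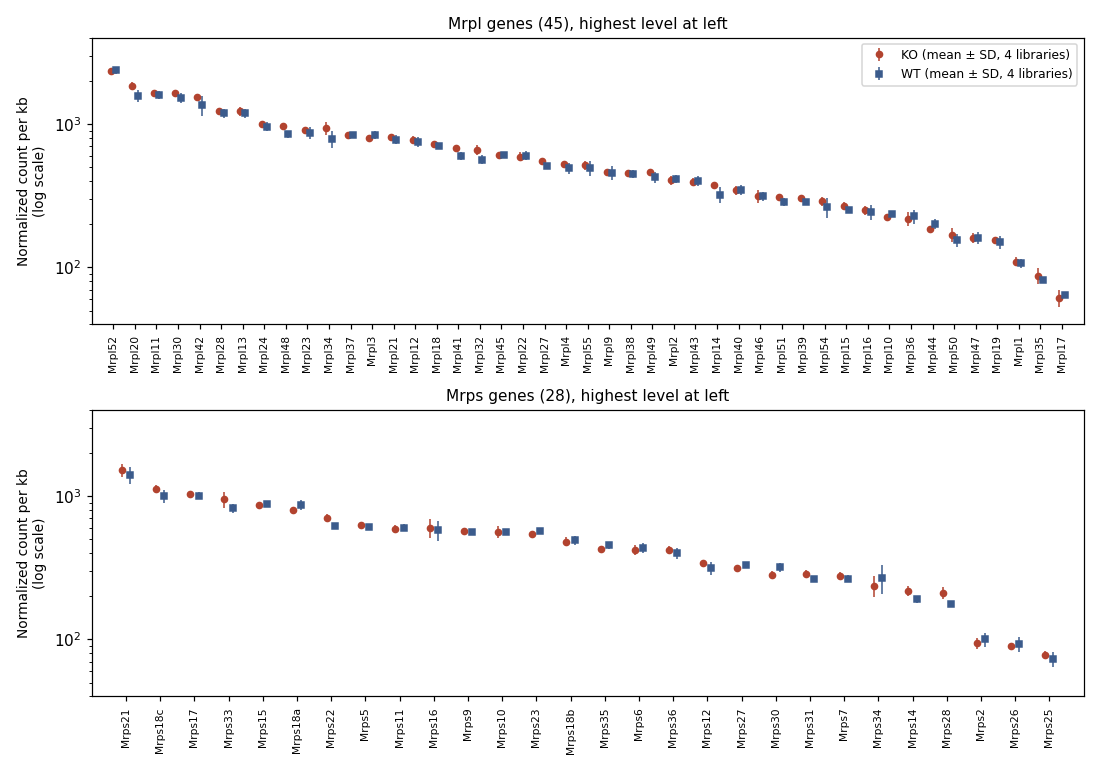
Normalized count per kilobase of transcript (log scale, vertical axis) of 45 Mrpl genes (top) and 28 Mrps genes (bottom), ordered by level, as mean ± SD over 4 KO (circles) and 4 WT (squares) libraries. KO and WT points lie close together from Mrpl52 (2372 per kb) down to Mrpl17 (62.9 per kb).

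No Mrpl gene passed the adjusted threshold on loss of Nuak1. In the KO 35 of the 45 Mrpl genes had a log2 fold change above 0, 4 (Mrpl48, Mrpl20, Mrpl32 and Mrpl41) were higher at an unadjusted p under 0.05, and none was lower at that threshold. Over all 12699 tested genes, 4.51% were higher and 3.18% lower at this p, 7.69% in either direction, so that the 8.89% of Mrpl genes lay near the background. No Mrpl gene reached an adjusted p under 0.05, a mark that 0.0709% of all genes passed, and the lowest adjusted p was 0.53 (edgeR). The DESeq2 test on the same genes gave 5 of 45 at an unadjusted p under 0.05, where 7.21% of all genes were called, and 0 after adjustment. Fold changes were small, with a median of 0.05 on the log2 scale (range -0.11 to 0.23), while the median over all tested genes was -0.01 and 45.6% of them were above 0. The intervals were narrow as well. All 45 had a 95% interval within 0.5 of 0 on the log2 scale, and 25 within 0.25. Of all tested genes 72.2% had one within 0.5, and 4636 of 12699 within 0.25. The median was 0.06 when scaled by DESeq2's size factors and 0.0185 with the length trend removed, where 2 Mrpl genes (Mrpl48 and Mrpl20) were called.

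Mrpl48, a mitochondria-specific protein of the central protuberance of the large subunit, had the smallest p. It had 939, 902, 923 and 907 normalized counts in KO R1 to R4 and 862, 819, 756 and 785 in WT R1 to R4. Every KO library was above every WT library. The log2 fold change was 0.19 (standard error 0.06, 95% interval 0.06 to 0.32, edgeR unadjusted p = 0.0087, adjusted p = 0.53), and DESeq2 called it as well (unadjusted p = 0.0059). Mrpl41, also mitochondria-specific, had 560, 505, 531 and 507 normalized counts in KO and 494, 475, 420 and 468 in WT. KO again lay wholly above WT, by a narrow margin between KO R2 and WT R1. KO exceeded WT by 0.18 on the log2 scale (standard error 0.07, edgeR unadjusted p = 0.036, adjusted p = 0.63). Genotypes without overlap, KO above, were found in 2 of 45 Mrpl genes against 2.64% of all tested genes, and none lay wholly below WT, as 1.85% of all genes did.

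Mrpl20, the counterpart of a bacterial protein that enters the large subunit early in its assembly, had 1470, 1259, 1439 and 1358 normalized counts in KO and 1187, 1114, 1095 and 1338 in WT. The genotypes overlapped, WT R4 being higher than KO R2. Its log2 fold change of 0.23 was the highest among Mrpl genes (standard error 0.08, edgeR unadjusted p = 0.012, adjusted p = 0.54). Mrpl32, a protein that is matured by the mitochondrial m-AAA protease, had 554, 494, 517 and 457 normalized counts in KO and 464, 422, 396 and 453 in WT. Here KO R4 was below WT R1, while KO R1 was the highest and WT R3 the lowest library. KO exceeded WT by 0.22 on the log2 scale (standard error 0.08, edgeR unadjusted p = 0.024, adjusted p = 0.61).

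In NCBIM37 these genes span Mrpl48 at chr7:107694265-107756811, Mrpl41 at chr2:24829637-24830618, Mrpl20 at chr4:155177645-155183885 and Mrpl32 at chr13:14702568-14705304. These calls turned on single libraries in part. Mrpl48 and Mrpl20 kept an unadjusted p under 0.05 in each of the 8 fits that left out 1 library, whereas Mrpl41 and Mrpl32 each lost it in 4. Among these was the fit without KO R1, with a log2 fold change of 0.155 for Mrpl41 (edgeR unadjusted p = 0.0793) and 0.182 for Mrpl32 (edgeR unadjusted p = 0.0587). The number of Mrpl genes called was 2 without KO R1, 2 without KO R3, 2 without WT R3 and 7 without WT R4. The share of all genes called in each of these fits is not given, so these shifts cannot be told from shifts over all genes. In all, 5 Mrpl genes not called in the edgeR fit above were called with some library left out (Mrpl34, Mrpl14, Mrpl42, Mrpl30 and Mrpl54). Mrpl34, with 612, 672, 595 and 525 normalized counts in KO and 560, 578, 457 and 446 in WT, was the nearest to the threshold among them (log2 fold change 0.22, edgeR unadjusted p = 0.059). With all libraries it was called by DESeq2 (unadjusted p = 0.0495) and by edgeR without a filter on low counts (unadjusted p = 0.0477). Mrpl42 had 971 to 1069 in KO and 798 to 864 in WT R1 to R3, but 1111 in WT R4, so that it was the single WT R4 library that brought the genotypes to overlap.

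**Figure D3:**
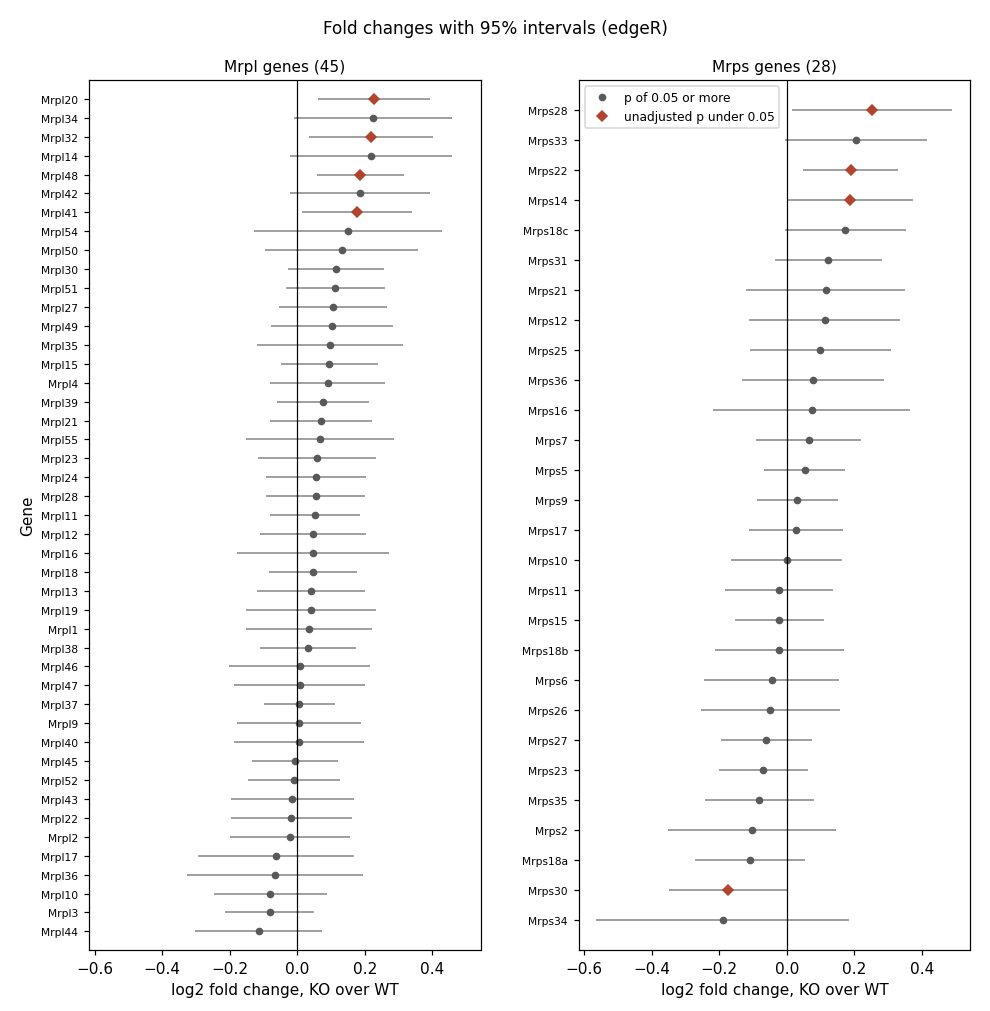
Log2 fold change, KO over WT (horizontal axis), of 45 Mrpl genes (left) and 28 Mrps genes (right), with 95% intervals from edgeR as lines; diamonds mark an unadjusted p under 0.05. Points lie between -0.11 and 0.23 for Mrpl and between -0.19 and 0.25 for Mrps genes, and 72 of 73 intervals stay within 0.5 of 0, Mrps34 being the exception.

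In the small subunit, too, no gene passed the adjusted threshold. Of the 28 Mrps genes 15 had a log2 fold change above 0 and 13 below. At an unadjusted p under 0.05, 3 were higher in KO (Mrps22, Mrps28 and Mrps14) and 1 was lower (Mrps30), together 14.3% against the 7.69% of all genes. No gene reached an adjusted p under 0.05, the lowest being 0.55 (edgeR). DESeq2 kept 1 of 28 at an unadjusted p under 0.05, Mrps22, against 7.21% of all genes. The median log2 fold change was 0.03 (range -0.19 to 0.25), and it turned to -0.01 when the trend with transcript length was removed. In that fit 3 Mrps genes were called, 1 higher (Mrps22) and 2 lower, Mrps30 and Mrps18a. The 95% interval stayed within 0.5 of 0 in 27 of 28 genes and within 0.25 in 12, against 72.2% and 4636 of 12699 tested genes. The exception was Mrps34, which shares exon bases with neighbours on both strands and whose interval ran from -0.56 to 0.18.

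Mrps22, a mitochondria-specific protein of the small subunit and a known disease gene, had 875, 880, 905 and 778 normalized counts in KO R1 to R4 and 747, 768, 725 and 772 in WT R1 to R4. The genotypes did not overlap, though KO R4 was only just above WT R4. The log2 fold change was 0.19 (standard error 0.06, 95% interval 0.05 to 0.33, edgeR unadjusted p = 0.013, adjusted p = 0.55), and the DESeq2 call had an unadjusted p of 0.011. Mrps28, the counterpart of a bacterial protein that holds mRNA, was the least counted of the 73. It had 182, 155, 175 and 150 normalized counts in KO and 134, 146, 141 and 133 in WT, without overlap, from 79 to 282 raw counts a library. Its log2 fold change of 0.25 was the highest of all 73 (standard error 0.11, 95% interval 0.02 to 0.49, edgeR unadjusted p = 0.039, adjusted p = 0.63).

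Mrps14 had 460, 386, 392 and 408 normalized counts in KO and 374, 385, 340 and 343 in WT. KO R2 exceeded WT R2 by little more than 1 count, so the absence of overlap rests on that margin. The difference was 0.19 on the log2 scale (standard error 0.08, edgeR unadjusted p = 0.049, adjusted p = 0.65). Mrps30, named for the small subunit although its protein sits in the large one, had 469, 418, 473 and 431 normalized counts in KO and 463, 489, 535 and 542 in WT. It was the only one of the 73 that was lower at this threshold, with KO R1 and KO R3 above WT R1. The difference was -0.18 on the log2 scale (standard error 0.08, edgeR unadjusted p = 0.049, adjusted p = 0.65). Mrps30 was not called with DESeq2's size factors (edgeR unadjusted p = 0.0579), with at least 10 counts in every library (0.0609) or without a filter (0.0669). In NCBIM37 the genes span Mrps22 at chr9:98489152-98502098, Mrps28 at chr3:8802146-8923918, Mrps14 at chr1:162125346-162132301 and Mrps30 at chr13:119168917-119176059. In all, 3 of 28 Mrps genes had KO wholly above WT, against 2.64% of all genes, and none wholly below, against 1.85%. Only Mrps22 among these 4 held through most fits, losing its call in 1 of 8 (without KO R3), while Mrps28 lost it in 5, and Mrps14 and Mrps30 in 6 each. Mrps28 (log2 fold change 0.216, edgeR unadjusted p = 0.0795), Mrps14 (0.14, edgeR unadjusted p = 0.119) and Mrps30 (-0.187, edgeR unadjusted p = 0.0545) were not called without KO R1. Without KO R1, 1 of 28 Mrps genes was called, higher in KO, and likewise without WT R3. Without KO R3 the 1 gene called was Mrps30, which is lower, so that no higher call was left. The count was 2 without WT R1, 1 of them higher, and 6 without KO R2, all of them higher. For these fits, too, the share of all genes called is not given. Not called in the edgeR fit above but called with some library left out were Mrps18c, described below, Mrps31 and Mrps33. Mrps33 had 657 to 862 normalized counts in KO and 591 to 703 in WT (log2 fold change 0.21, edgeR unadjusted p = 0.055), and it was called without KO R2, KO R4 or WT R4. With all libraries and no filter on low counts Mrps33 was also called (edgeR unadjusted p = 0.048). Mrps31 had 406 to 464 in KO and 394 to 423 in WT (log2 fold change 0.12), and it was called without KO R2.

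**Figure D4:**
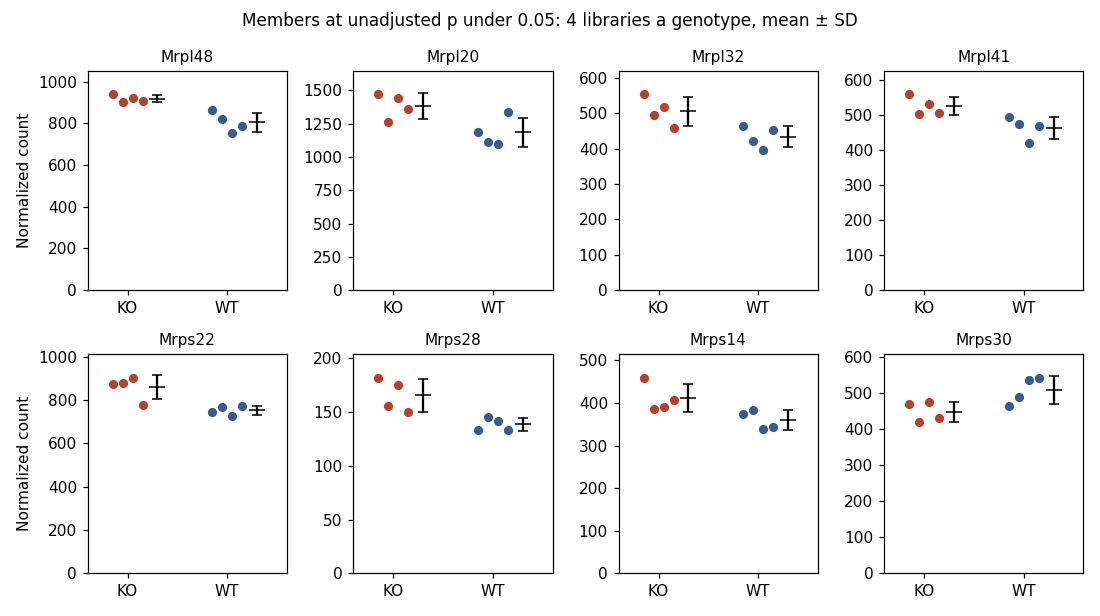
Normalized counts (vertical axis, from 0) of the 8 genes with an unadjusted p under 0.05 in 4 KO and 4 WT libraries, with mean ± SD beside the points. KO lies wholly above WT for Mrpl48, Mrpl41, Mrps22, Mrps28 and Mrps14, the genotypes overlap for Mrpl20 and Mrpl32, and Mrps30 is lower in KO.

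The Mrps18 genes are 3 paralogues of bacterial S18 whose proteins take different places. Mrps18c, the counterpart that sits where bacterial S18 does, had 778, 678, 729 and 696 normalized counts in KO and 625, 613, 585 and 738 in WT. Only WT R4 reached into the KO range. Its log2 fold change was 0.17 (edgeR unadjusted p = 0.057), and it was 0.25 (edgeR unadjusted p = 0.0055) without WT R4. Mrps18b, which occupies a separate place in the small subunit, had 345 to 405 in KO and 349 to 419 in WT, with a log2 fold change of -0.02 (95% interval -0.21 to 0.17). Mrps18a, which sits in the large subunit, had 573 to 646 in KO and 599 to 716 in WT, with a log2 fold change of -0.11 (edgeR unadjusted p = 0.16). With the length trend removed Mrps18a had a log2 fold change of -0.165 (edgeR unadjusted p = 0.0457). The paralogues thus had fold changes on either side of 0, and the difference between them was not tested. Mrps36, now known as a subunit of the 2-oxoglutarate dehydrogenase complex and not of the ribosome, had 251 to 292 in KO and 221 to 270 in WT (log2 fold change 0.08, edgeR unadjusted p = 0.43).

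Sorted by the place of the protein and by descent, calls fell in each group. Of 29 large-subunit proteins with a bacterial counterpart 23 were above 0, with a median log2 fold change of 0.05, and 2 were higher at an unadjusted p under 0.05. Of 18 mitochondria-specific proteins of the large subunit 12 were above 0, with a median of 0.02, 2 higher and 1 lower. In the small subunit the 15 proteins with a bacterial counterpart had a median of 0.05 with 2 higher, and the 10 mitochondria-specific ones a median of -0.04 with 1 higher. Counted by place rather than by symbol, 5 of 47 large-subunit genes and 3 of 25 small-subunit genes had an unadjusted p under 0.05. The share of all tested genes with such a p was 7.69% in either direction. The groups hold few genes, and none of them was tested against this share or against another group. Genes with longer transcripts tended to lower fold changes. Spearman's rho of log2 fold change with transcript length was -0.27 over the 73 genes and -0.16 over all tested genes, a description over genes that share the same 8 libraries.

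Summed over genes, the transcripts for the mitochondrial ribosome took a like part of each library. Mrpl genes made up 0.181 ± 0.0067% of the counts of KO libraries and 0.174 ± 0.0087% of WT libraries (SD, n = 4), and Mrps genes 0.0925 ± 0.0024% in KO and 0.0909 ± 0.0027% in WT. The ranges overlapped, at 0.173 to 0.189% against 0.164 to 0.184% for Mrpl. The ratio of Mrpl to Mrps counts was 1.95 ± 0.032 in KO and 1.91 ± 0.040 in WT (SD, n = 4), and the ranges overlapped. The Mrpl genes moved together from library to library, within as well as between genotypes. Their median deviation from the mean of the 8 libraries was 0.07, -0.03, 0.07 and 0.01 in KO R1 to R4 and -0.03, 0.01, -0.11 and 0.06 in WT R1 to R4. WT R3 was lowest, with 4 of 45 Mrpl genes above their own mean, and WT R4 stood with the higher KO libraries, with 30 of 45. KO R1 and KO R3 each had 35 of 45 above, and KO R2 had 19. The Mrps genes had the same lowest library and a narrower spread, from -0.06 in WT R3 to 0.05 in KO R3 and WT R4.

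**Figure D5:**
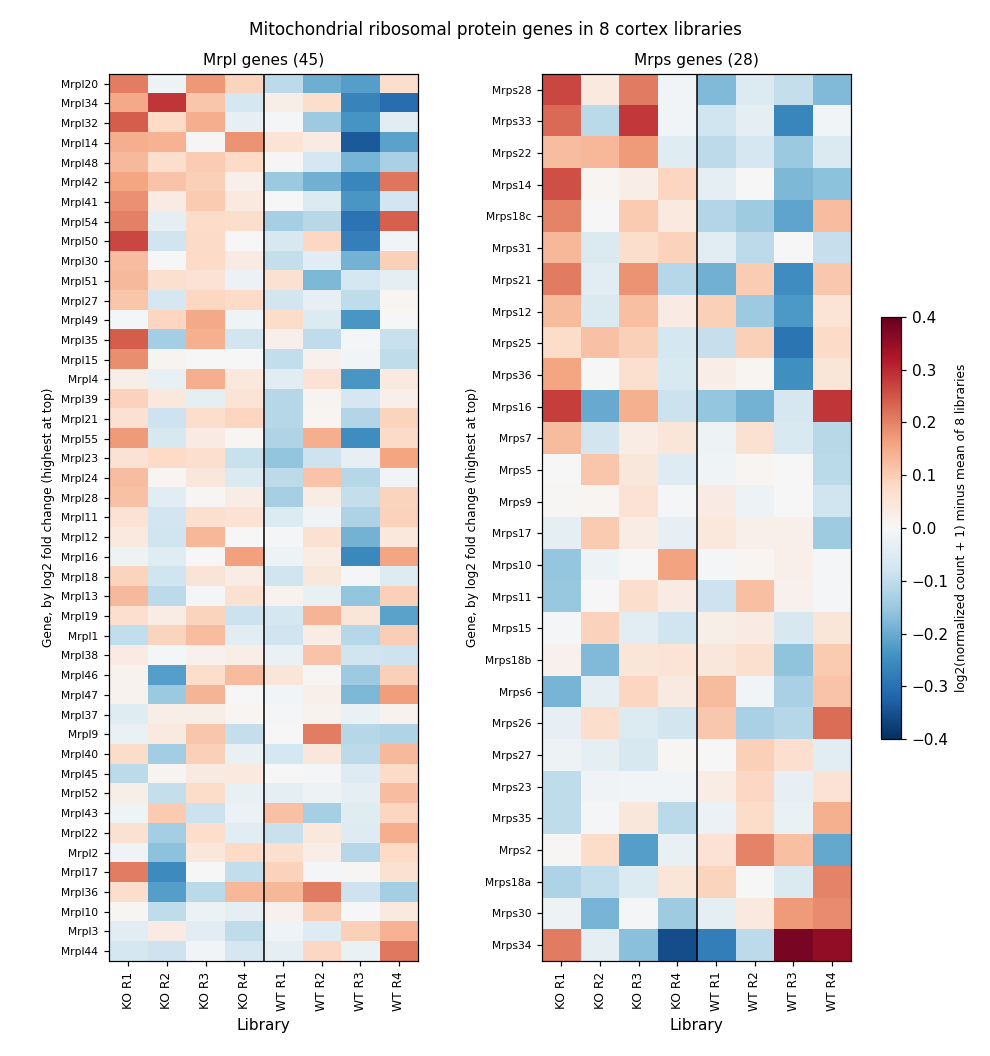
Deviation of log2(normalized count + 1) from the mean of the 8 libraries (colour) for 45 Mrpl genes (left) and 28 Mrps genes (right), ordered by log2 fold change, in 4 KO and 4 WT libraries. The WT R3 column is mostly blue among Mrpl genes (4 of 45 above their mean), and the WT R4 column mostly red (30 of 45).

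Among the other genes of mitochondrial translation, more genes lay below 0 than above it in each list but that of further ribosomal proteins. Over all tested genes 45.6% lay above 0. Of 7 mitochondrial ribosomal proteins under other symbols 4 were above 0, and 2 were higher at an unadjusted p under 0.05, a share read on few genes against 4.51% of all. Chchd1, which the study lists as changed in these same libraries, had 1303, 1019, 1239 and 1087 normalized counts in KO and 1006, 972, 823 and 1049 in WT. WT R4 exceeded KO R2. KO exceeded WT by 0.27 on the log2 scale (standard error 0.09, edgeR unadjusted p = 0.014, adjusted p = 0.55). Aurkaip1, also a small-subunit protein, had 603, 538, 568 and 603 in KO and 516, 535, 495 and 537 in WT, without overlap by about 1 count (log2 fold change 0.15, edgeR unadjusted p = 0.045). The call of Aurkaip1 was lost in 6 of the 8 fits that left out 1 library, among them that without KO R1 (0.14, edgeR unadjusted p = 0.083), and with the length trend removed (0.11), while that of Chchd1 held in all 8. Dap3, a GTP-binding protein of the small subunit, had 2150 to 2223 in KO and 2169 to 2277 in WT, with a log2 fold change of -0.01 (standard error 0.04).

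The lists named 31 assembly factors, 22 mitochondrial tRNA synthetases and 16 translation factors, of which 18, 19 and 14 were tested. Of the 18 assembly factors 6 had a log2 fold change above 0, and of the 19 mitochondrial tRNA synthetases 7 did. This compares with 35 of 45 Mrpl genes and 45.6% of all tested genes, and the difference between lists was not tested. None of either list had an unadjusted p under 0.05, as 7.69% of all tested genes did. The median log2 fold changes of the 2 lists were -0.02 and -0.03. Of 14 translation factors 4 were above 0, with a median of -0.02, and 1 was called, Mtif2, the initiation factor that brings the first tRNA to the ribosome. Mtif2 had 1077, 1213, 1222 and 1191 normalized counts in KO and 1270, 1421, 1463 and 1201 in WT, and KO R2 and KO R3 were above WT R4. Its log2 fold change was -0.19 (standard error 0.07, edgeR unadjusted p = 0.027, adjusted p = 0.62). Mtif2 lost this call without KO R1 (-0.14, edgeR unadjusted p = 0.087), without WT R2 (-0.16) and without WT R3 (-0.14).

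Cytosolic ribosomal protein genes and transcripts of mitochondrial DNA are set beside these values from the same fit. Of 73 cytosolic ribosomal protein genes 72 had a log2 fold change above 0, 39 were higher at an unadjusted p under 0.05, and the median was 0.16, against 50 of 73, 7 and 0.05 for the mitochondrial ones. Over all tested genes 4.51% were higher at this p and 45.6% were above 0. Of the 10 tested transcripts for subunits encoded by mitochondrial DNA, which the mitochondrial ribosome translates, 9 were above 0, 6 were higher and the median was 0.20. The proteins made from these transcripts were not measured. None of the cytosolic ribosomal protein or mitochondrially encoded genes passed an adjusted p under 0.05 with edgeR, and DESeq2 passed 0 and 2 of them. For neither list are counts without KO R1 given here, so how far they rest on that library is not shown. The cytosolic genes were also lowest in WT R3, at -0.21, and highest in KO R1, at 0.21. The lowest library was thus the same for Mrpl, Mrps and cytosolic genes. At the high end, Mrpl genes stood at 0.07 in both KO R1 and KO R3. Mrps genes were at 0.01 in KO R1 and highest in KO R3 and WT R4, at 0.05. The difference between the lists was not tested.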

How the data were processed

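The authors trimmed reads of stranded poly-A libraries with Cutadapt 1.13 and Prinseq 0.20.4 (Phred quality 20, reads under 25 bp removed), used TopHat2 2.0.13 with Samtools 0.1.19 for mapping to mm9, and deposited HTSeq-count counts per gene without normalization. How reads with several matches were treated is not given in the sources used here.

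Counts of 4 KO and 4 WT libraries were compared by edgeR 4.0.16 under R 4.3.3, as a two-sided quasi-likelihood test without covariates after TMM scaling and filterByExpr by genotype, with Benjamini-Hochberg adjustment over all 12699 genes tested. Standard errors, and from them 95% intervals, were obtained from the log2 fold change and the F statistic. Alternatives were DESeq2 1.42.0, its size factors given to edgeR, another filter (none, or 10 counts or more in each library), a correction for the length trend and leaving out each library. Whether embryos of a genotype shared a litter is not known for a column, so p-values measure the spread between these libraries. Scripts were tested on simulated counts. Table rows without any count numbered 4641, and 0 columns were left out. Positions and lengths came from GENCODE M1 (NCBIM37), promoter windows from RefSeq.

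The genes named are Nuak1, members with an unadjusted p under 0.05 (up to 10 a subunit) or without overlap between genotypes, the 3 highest and 3 lowest a subunit per kb, the Mrps18 paralogues, Mrps36, Chchd1, up to 4 genes a further list at that p, and members whose direction or call turned with 1 library. Pairs of neighbouring genes, Dap3 and Mrps34 were named after their values were seen. The members and lists were chosen with earlier results of these data known.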

Additional observations from a re-analysis of the deposited data

Results flagged for a closer look

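In 126 groups of 4 libraries, the library farthest from the others was set against Dixon's 95% limit, which chance passes in about 1 group of 20, so about 6.3 groups would pass by chance and 5 did. Mrpl52 had 1064 normalized counts in WT R4, above 951 to 962 in the other WT libraries. Mrpl11 had 1262 in KO R2, below 1385 to 1392 in the other KO libraries. Mrps17 had 784 in WT R4, below 877 to 892 in the other WT libraries. Mrps36 had 221 in WT R3, below 263 to 270 in the other WT libraries. The markers of meningeal fibroblasts had a median deviation of 4.09 on the log2 scale in KO R1, above -0.53 to -0.07 in the other KO libraries.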

How the results depend on the processing

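Without 1 library, between 2 and 7 Mrpl genes had an unadjusted p under 0.05 (2 without KO R1, KO R3 or WT R3, 7 without WT R4), between 1 and 6 Mrps genes, and between 1 and 6 of the 58 other genes of mitochondrial translation (3 with all libraries). The share of all genes called in each of these fits is not given beside them. Removing the trend with transcript length left 2 Mrpl genes and moved the Mrpl median log2 fold change from 0.0529 to 0.0185. It turned the Mrps median log2 fold change to -0.0131, and DESeq2 left 1 Mrps gene. The cause of these shifts was not tested. The median of the other genes of mitochondrial translation, -0.0162, ranged from -0.0197 to 0.00393 without 1 library, above 0 without KO R1 and without WT R2. The Mrpl median ranged from 0.0333 to 0.0874 and the Mrps median from 0.0195 to 0.0431 without turning. DESeq2's size factors, either filter, a sum of 800 counts and membership by place in the structure (the last chosen after seeing the data) kept each count within 1.5 times. With those size factors and with either filter, every Mrps gene called was higher in KO, and the lower call of Mrps30 was lost. No fit gave a member with an adjusted p under 0.05.

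Of the 8 genes called, 2 were called in all 8 fits without 1 library, and 8 others were called in some of them. The direction turned with a library left out in 22 genes, each within 0.0655 of 0 on the log2 scale with all libraries. Their log2 fold changes without 1 library were Mrpl52 -0.0394 to 0.0346, Mrpl1 -0.00371 to 0.0789, Mrpl17 -0.135 to 0.009, Mrps17 -0.00619 to 0.0511, Mrps26 -0.101 to 0.0229, Mrps18b -0.0716 to 0.0371, Mrpl46 -0.038 to 0.0821, Mrps11 -0.0548 to 0.0292, Mrpl36 -0.124 to 0.00116, Mrpl45 -0.0217 to 0.0329 and Mrpl16 -0.0198 to 0.11. The others were Mrpl37 -0.00144 to 0.0294, Mrpl9 -0.0312 to 0.0836, Mrps6 -0.0894 to 0.0129, Mrps15 -0.0429 to 0.00181, Mrpl2 -0.0572 to 0.0356, Mrpl43 -0.0611 to 0.0256, Mrpl47 -0.0443 to 0.0671, Mrps10 -0.0602 to 0.0555, Mrpl19 -0.00906 to 0.0983, Mrpl22 -0.0518 to 0.0316 and Mrpl40 -0.0295 to 0.0581. With the length trend removed, Mrps17 went to -0.0239, Mrpl46 to -0.0244, Mrpl37 to -0.00875, Mrpl9 to -0.00492 and Mrpl40 to -0.0338. Mrpl45 went to 0.000169 with DESeq2's size factors, 0.00298 with DESeq2, 0.00111 with at least 10 counts in every library and 0.0029 without a filter, and Mrps10 to 0.00684, 0.00955, 0.00765 and 0.00919.

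No paired analysis was possible because no litter, embryo or sex is tied to a column of counts. The precision rests on 4 libraries a genotype, and the median 95% interval of a member reached 0.18 on either side of its log2 fold change.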
